A study of Mus musculus with 10 samples.

Results

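The small leucine-rich proteoglycans are secreted proteins of the extracellular matrix. In mouse melanomas grown in WT mice or in Siah2 knockout mice, their transcripts were taken as the rows of the deposited expression table named Dcn, Bgn, Aspn, Lum, Prelp, Omd, Fmod, Kera, Ogn and Podn. All 10 genes are among the 24421 that the table lists. Of these 10, 8 carried values and belonged to the 12926 genes tested, while Fmod and Kera were at 0 in all 10 tumors, as were 11495 genes in all. Genes that every cell uses, such as the ribosomal protein gene Rpl26, were also at 0 throughout, so a 0 does not show that a gene was silent.

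The tumors came from YUMMER1.7, a mouse melanoma line that carries a mutant Braf allele, among other engineered changes. Cells of this line (100000 per mouse) were placed under the flank skin of mice of C57BL/6 background, either WT (5 tumors, columns WT2 to WT6) or carrying a whole-body knockout of the ubiquitin ligase gene Siah2 (5 tumors, columns KO1 to KO5). Whole tumors were collected after 10 days for sequencing of poly(A) RNA. Both groups received the same cells, so the groups differ in the host. The background is that given by the methods, since the number in the strain labels counts up from sample to sample, starting at C57Bl6, and the labels give no age and do not say whether the tumors were handled in batches. Normalized values, which are read counts scaled between libraries by the authors, gave library totals of 15414758 to 15527530 for WT tumors and 15605574 to 16503134 for the others.

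Siah2 itself was not lower in the tumors labelled KO. It was at 391, 428, 407, 393 and 408 in WT2 to WT6, and at 573, 739, 747, 490 and 610 in KO1 to KO5, so all KO tumors lay above all WT tumors (log2 difference 0.62 ± 0.11 SE, limma adjusted p = 0.00104). Reads of the entire gene enter this value, which does not show whether the deleted part was transcribed. Host and injected cells both add to it, and the sources used here do not state the Siah2 genotype of the injected cells. The second group is therefore called KO-labelled tumors, and each direction below rests on the labels. Melanocyte markers gave little check of the tumor type, since Mlana, Pmel, Tyr, Tyrp1, Dct and Sox10 were at 0 in all tumors. Mitf and Gpnmb, named after their values were seen, were measured in both groups. Mitf was at means of 346.2 (WT) and 359.2 (KO-labelled), and Gpnmb at 1045 and 1179 (limma adjusted p = 0.767 and 0.474). S100b and Ednrb were lower in KO-labelled tumors (log2 difference -2.90 and -1.45, limma adjusted p = 0.00029 and 0.00422).

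The core proteins of this family are built of leucine-rich repeats folded into a curved solenoid, and most of them bind fibrillar collagens and regulate how fibrils assemble and how thick they grow. Many carry glycosaminoglycan chains, of chondroitin or dermatan sulfate in the class I proteins decorin and biglycan and of keratan sulfate in several class II proteins. In skin and in the stroma of solid tumors they are made mainly by fibroblasts and related mesenchymal cells. Released from the matrix, some of them also act as ligands, as decorin does for receptor tyrosine kinases and biglycan for Toll-like receptors.

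Of the 8 measured members, 7 were lower and 1, decorin (Dcn), was higher in KO-labelled tumors. Over all tested genes, 18.2% were called lower and 17.5% higher at the same threshold (limma, adjusted p under 0.05). For each of the 8 the values of the groups did not overlap. Among all tested genes, 12.9% were lower and 11.9% higher without overlap. The median log2 difference was -1.21 over the measured members and 0.00 over all tested genes, whose 5th and 95th percentiles lay at -0.83 and 0.78. In whole tumors, fewer cells of a type and less RNA per cell cannot be told apart.

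**Figure D1:**
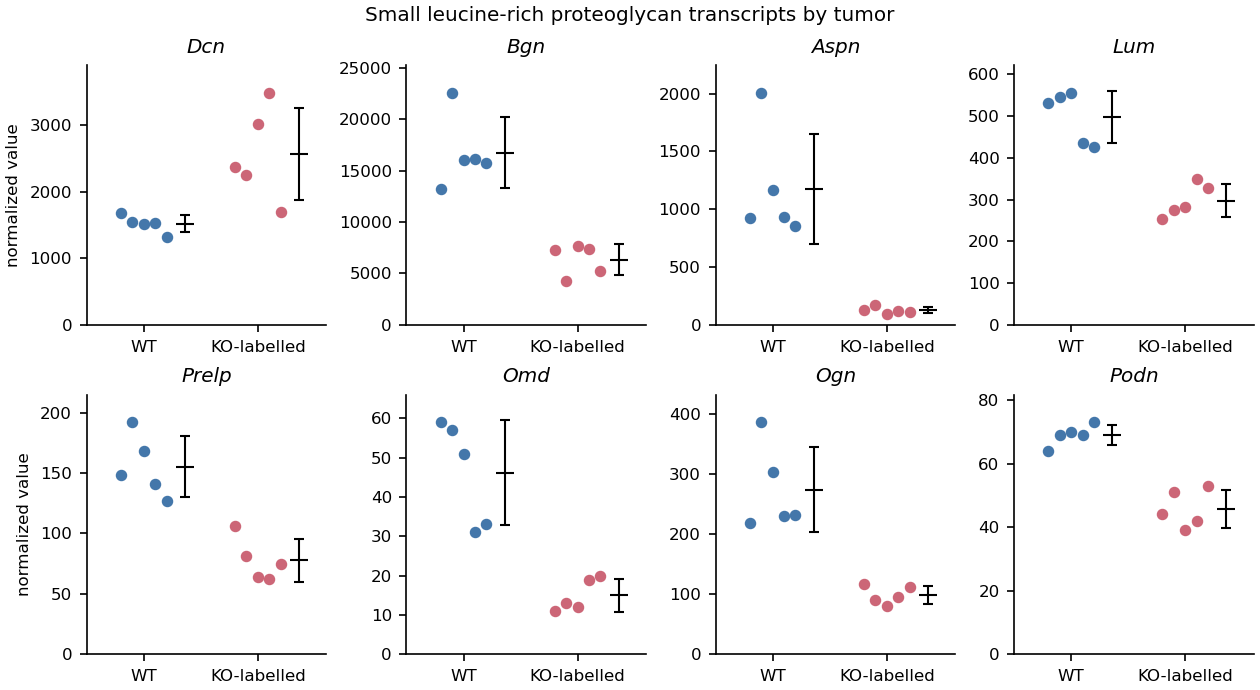
Normalized value (linear axis from 0) of each measured small leucine-rich proteoglycan gene in each tumor, for WT and KO-labelled tumors, with 1 point per tumor in column order and the mean ± SD (n = 5 per group) beside the points. The groups do not overlap in any panel, and Dcn is the only panel with the KO-labelled tumors on top.

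**Figure D2:**
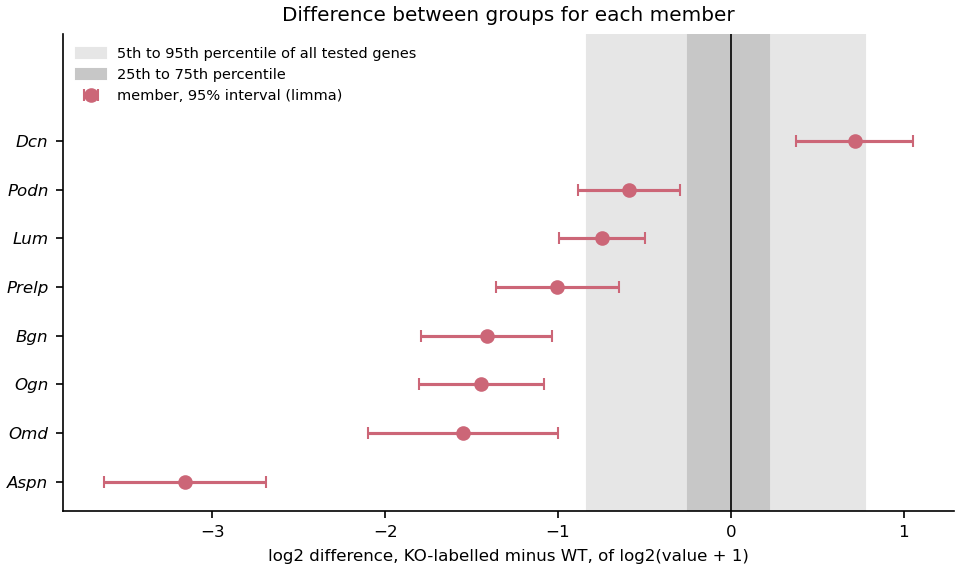
Difference between KO-labelled and WT tumors in log2(value + 1) for each measured member, with its 95% interval from limma, over the range of all 12926 tested genes (light grey, 5th to 95th percentile; dark grey, 25th to 75th). Aspn lies farthest from 0, at -3.16, and Dcn lies on the positive side, at 0.72.

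Of the members, decorin, biglycan and asporin belong to class I. Decorin (Dcn, ENSMUSG00000019929.16, mm10 chromosome 10, 97479609 to 97518143, plus strand) binds collagen type I and transforming growth factor beta. Normalized values in WT2 to WT6 were 1676, 1551, 1522, 1533 and 1324, and those in KO1 to KO5 were 2377, 2251, 3020, 3485 and 1704. The lowest KO-labelled tumor, KO5, was just above the highest WT tumor, WT2. The mean went from 1521 ± 126.4 to 2567 ± 694.4 (SD, n = 5 each), and the rise was 1.64-fold in the fit on log2(value + 1), on which every fold change of a gene given here rests (log2 difference 0.72 ± 0.16 SE, 95% interval 0.38 to 1.05, limma adjusted p = 0.00359). Decorin also spread more in the KO-labelled group, with a log2 SD of 0.40, where WT tumors had 0.12.

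Biglycan (Bgn, ENSMUSG00000031375.17, mm10 chromosome X, 73483602 to 73495933, plus strand), the closest relative of decorin, can signal through Tlr2 and Tlr4 in its soluble form. Across WT2 to WT6 it was at 13240, 22536, 16056, 16095 and 15771, and across KO1 to KO5 at 7294, 4225, 7654, 7345 and 5249. WT3 was the highest tumor, and all KO-labelled tumors were below the lowest WT tumor. The mean went from 16740 ± 3452 to 6353 ± 1526 (SD, n = 5 each), and the fitted fall was 2.66-fold (log2 difference -1.41 ± 0.18 SE, 95% interval -1.79 to -1.03, limma adjusted p = 8.01e-05).

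Asporin (Aspn, ENSMUSG00000021388.14, mm10 chromosome 13, 49544443 to 49567565, plus strand) has a stretch of aspartate residues near its start, lacks the site at which its relatives carry a chain, and binds collagen and transforming growth factor beta. From WT2 to WT6 its values were 928, 2004, 1166, 932 and 851, and from KO1 to KO5 they were 131, 168, 94, 123 and 115. The WT values differed among themselves, with WT3 far above the rest, yet the lowest of them was still several times the highest KO-labelled value. The mean went from 1176 ± 477.6 to 126.2 ± 27.1 (SD, n = 5 each). The fitted fall of 8.93-fold (log2 difference -3.16 ± 0.22 SE, 95% interval -3.63 to -2.69, limma adjusted p = 1.13e-06) was number 12 in size among all genes called lower and number 24 by p among the 12926 tested. Without WT3 the log2 difference was -2.95 (limma adjusted p = 8.83e-07).

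Class II members, which include the carriers of keratan sulfate, were lower where they were measured. Lumican (Lum, ENSMUSG00000036446.5, mm10 chromosome 10, 97565128 to 97572703, plus strand), a regulator of collagen fibrils best known from cornea and skin, had values of 531, 545, 555, 436 and 426 in WT tumors and 253, 275, 282, 349 and 328 in KO-labelled tumors. Both groups were tight and well apart, and the fall was 1.68-fold, from 498.6 ± 62.4 to 297.4 ± 39.7 (SD, n = 5 each; log2 difference -0.74 ± 0.11 SE, limma adjusted p = 0.000369). Prelp (ENSMUSG00000041577.5, mm10 chromosome 1, 133910304 to 133921414, minus strand) has a basic N terminus that binds heparin and anchors basement membranes to collagen. It was at 148, 192, 168, 141 and 127 in WT tumors and at 106, 81, 64, 62 and 75 in KO-labelled tumors. KO1 came nearest to the WT range, and the fall was 2.004-fold (log2 difference -1.003 ± 0.16 SE, limma adjusted p = 0.000561). In the annotation used here (GENCODE M21) the antisense gene Gm15851 shares 350 exon bases with Prelp, and the sources used here do not give the strand setting of the counting.

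Osteomodulin (Omd, ENSMUSG00000048368.9, mm10 chromosome 13, 49582462 to 49592822, plus strand), a mineral-binding protein of bone and dentin, had low normalized values. They were 59, 57, 51, 31 and 33 in WT tumors and 11, 13, 12, 19 and 20 in KO-labelled tumors. WT5 and WT6 were the lowest WT tumors, and both were still above all KO-labelled tumors. The fall was 2.93-fold (log2 difference -1.55 ± 0.25 SE, 95% interval -2.10 to -0.9993, limma adjusted p = 0.000557), and because the values are low, the added 1 on the log2(value + 1) scale makes this an understatement. Fibromodulin (Fmod, ENSMUSG00000041559.7, chromosome 1) and keratocan (Kera, ENSMUSG00000019932.8, chromosome 10), a protein of the corneal stroma, were at 0 in every tumor, and no difference was computed for them.

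Class III was represented by osteoglycin (Ogn, ENSMUSG00000021390.6, mm10 chromosome 13, 49608046 to 49624501, plus strand), also called mimecan, a regulator of collagen fibrils found in many connective tissues. It was at 218, 386, 304, 230 and 232 in WT tumors and at 116, 90, 80, 96 and 111 in KO-labelled tumors. WT3 and WT4 were the highest, and the highest KO-labelled tumor was well below the lowest WT tumor. The mean went from 274 ± 71.2 to 98.6 ± 14.9 (SD, n = 5 each), and the fitted fall was 2.72-fold (log2 difference -1.44 ± 0.17 SE, 95% interval -1.80 to -1.08, limma adjusted p = 4.99e-05). Podocan (Podn, ENSMUSG00000028600.15, mm10 chromosome 4, 108014791 to 108096445, minus strand) is a class V member that binds collagen and restrains smooth muscle cells. Values of 64, 69, 70, 69 and 73 in WT tumors and 44, 51, 39, 42 and 53 in KO-labelled tumors made it the steadiest member in WT tumors (SD 0.07 on the log2 scale). It also changed least among those that fell, by 1.504-fold (log2 difference -0.59 ± 0.14 SE, 95% interval -0.88 to -0.29, limma adjusted p = 0.00499). Leaving out any single tumor kept the direction and the call of all 8 measured members.

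The spread between tumors of the same group exceeded the median spread of all tested genes for 7 of the 8 measured members in WT tumors, all but Podn, and for 5 of 8 in KO-labelled tumors, all but Lum, Ogn and Podn. The members' median log2 SD was 0.25 among WT and 0.30 among KO-labelled tumors, where all tested genes had 0.11 and 0.22. Together the 8 measured members held 0.109 to 0.176% of the library total in WT tumors (median 0.125%) and 0.0439 to 0.0718% in KO-labelled tumors (median 0.0646%), with no overlap. Biglycan made up most of this sum in every tumor, so it mainly follows that gene.

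To compare levels between genes, each normalized value was divided by the length in kilobases of the gene's principal transcript. In WT tumors the level per kilobase was highest for Bgn (6920 ± 1427, SD, n = 5), followed by Dcn (865.3 ± 71.9), Aspn (505 ± 205.1), Lum (203.7 ± 25.5), Ogn (106.8 ± 27.7), Prelp (42.9 ± 7.01), Podn (21.8 ± 1.02) and Omd (20.5 ± 5.92). The ranges of Dcn and Aspn overlapped, although Dcn was the higher in 5 of 5 tumors. Podn and Omd could not be ordered, as Podn was the higher in only 2 of 5. With the summed length of all annotated exons in place of the principal transcript, Aspn stood above Dcn in WT tumors and Omd above Podn, so these neighbours depend on the length used.

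In KO-labelled tumors the level per kilobase was 2626 ± 630.7 for Bgn and 1460 ± 395.0 for Dcn (SD, n = 5), whose ranges overlapped while Bgn was the higher in 5 of 5 tumors. Lum came next, at 121.5 ± 16.2, and now stood above Aspn, at 54.2 ± 11.6. Ogn followed at 38.4 ± 5.79, with a range that overlapped that of Aspn, then Prelp at 21.5 ± 4.90, Podn at 14.4 ± 1.88 and Omd at 6.67 ± 1.86. Asporin was thus the third most abundant member in WT tumors and the fourth in KO-labelled tumors on this scale.

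Expressed as a share of the summed level per kilobase of the 8 measured members, the make-up shifted from biglycan toward decorin. Biglycan held 79.5 ± 2.32% in WT tumors and 60.3 ± 4.97% in KO-labelled tumors (SD, n = 5). Decorin held 10.2 ± 2.02%, between 7.65 and 13.2%, in WT tumors and 33.5 ± 4.71%, between 28.4 and 38.9%, in KO-labelled tumors. The share of asporin went from 5.67 ± 1.14% to 1.33 ± 0.541%. Lumican, which fell in absolute value, had shares that overlapped, 2.39 ± 0.441% against 2.91 ± 0.744%. Shares of a whole depend on each other, so they are given without a test. They also depend on the length used. With the summed exon length, decorin held 6.88 ± 1.38% in WT and 25.2 ± 3.85% in KO-labelled tumors, asporin 12.5 ± 2.28% and 3.26 ± 1.28%, lumican 5.34 ± 0.976% and 7.22 ± 1.67%, and biglycan 70.5 ± 2.72% and 59.6 ± 5.01% (SD, n = 5 each).

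**Figure D3:**
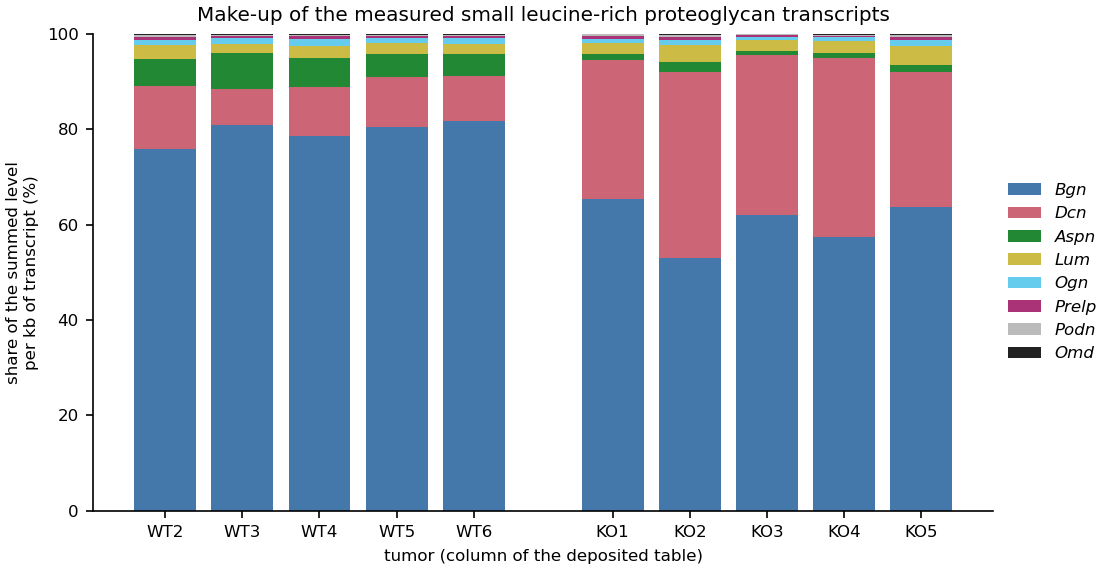
Share (percent, axis from 0 to 100) of the summed level per kilobase of transcript that each measured member took in each tumor, 1 bar per tumor, WT2 to WT6 on the left and KO1 to KO5 on the right. Biglycan holds 75.9 to 81.7% of each WT bar and 53.1 to 65.3% of each KO-labelled bar, and the decorin part is larger in all KO-labelled tumors.

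Ratios of members within a tumor do not depend on the scaling between libraries, apart from rounding. The tests, differences and intervals of ratios had 1 added to both values, and the ratios printed per tumor did not. The added 1 weighs most for low members such as Omd. With 10 added in its place, the log2 difference of Aspn to Omd went from -1.61 to -1.92. Of 9 ratios compared (exact two-sided permutation test over the tumors), 8 differed without overlap between groups, each with an exact p of 0.00794, the smallest that 252 arrangements of 5 against 5 can give, and a Benjamini-Hochberg adjusted p of 0.00893 over the 9. For every ratio of decorin to another member this outcome was fixed beforehand, because decorin was higher and the other member lower without overlap. The p-values of those ratios therefore add nothing to the fits of the single genes, and only the sizes of the differences are read. The ratio of decorin to biglycan was 0.127, 0.0688, 0.0948, 0.0952 and 0.0840 in WT2 to WT6 and 0.326, 0.533, 0.395, 0.474 and 0.325 in KO1 to KO5. The lowest KO-labelled ratio was thus well above the highest WT ratio. The difference was 4.37-fold (2.13 on the log2 scale, 95% interval 1.66 to 2.63).

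The largest of these differences was that of decorin to asporin. This ratio was 1.81, 0.774, 1.31, 1.64 and 1.56 in WT2 to WT6 and 18.1, 13.4, 32.1, 28.3 and 14.8 in KO1 to KO5, a 14.7-fold difference (log2 difference 3.87, 95% interval 3.10 to 4.66). WT3, with its high asporin value, had the lowest ratio. Decorin also rose against its neighbour on chromosome 10, lumican, from between 2.74 and 3.52 to between 5.20 and 10.7 (log2 difference 1.46, 95% interval 0.97 to 1.82). Against osteoglycin it rose by 2.16 and against podocan by 1.30 on the log2 scale.

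Among the members that fell, asporin fell further than the others it was compared with. The ratio of biglycan to asporin was 3.35-fold higher in KO-labelled tumors (log2 difference 1.75, 95% interval 1.05 to 2.42), and that of osteoglycin to asporin 3.28-fold higher (log2 difference 1.72, 95% interval 1.32 to 2.08). The ratio of asporin to osteomodulin was 3.05-fold lower (log2 difference -1.61, 95% interval -2.32 to -0.90). Osteoglycin and osteomodulin were the exception. Their ratio was 3.69, 6.77, 5.96, 7.42 and 7.03 in WT tumors and 10.5, 6.92, 6.67, 5.05 and 5.55 in KO-labelled tumors, with overlapping groups (log2 difference 0.11, 95% interval -0.44 to 0.73, exact permutation p = 0.683). The interval leaves room for a difference in either direction.

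**Figure D4:**
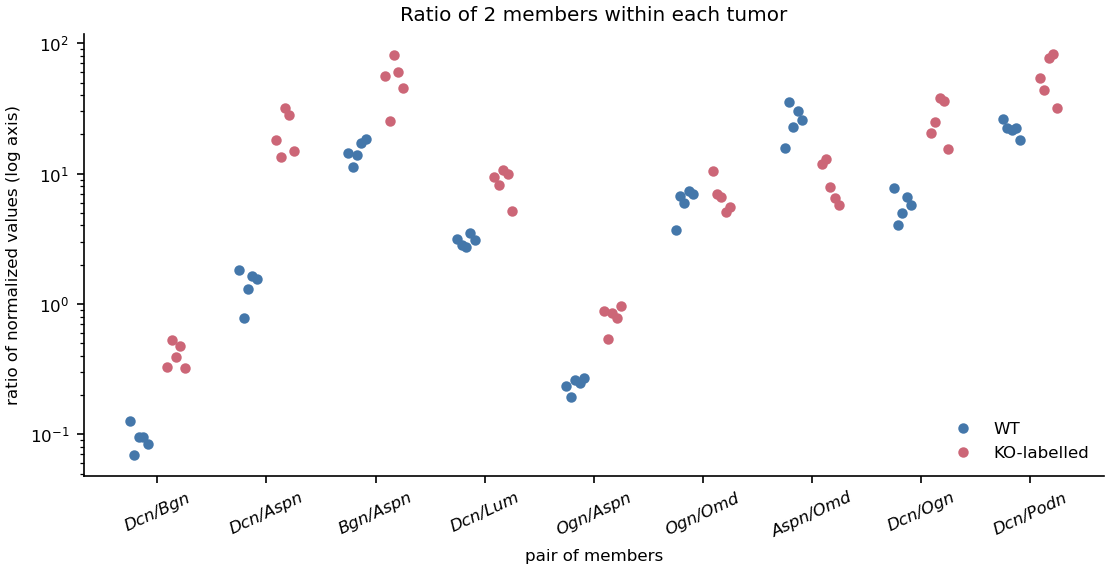
Ratio of the normalized values of 2 members within each tumor (log axis), for the 9 pairs compared, with 1 point per tumor in WT (blue) and KO-labelled (red) groups. The groups are apart in all pairs but Ogn/Omd, which spans 3.69 to 7.42 in WT and 5.05 to 10.5 in KO-labelled tumors.

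Several members lie side by side in the genome. Dcn, Lum and Kera adjoin each other on chromosome 10, Aspn, Omd and Ogn on chromosome 13, and Prelp and Fmod on chromosome 1, while Bgn (chromosome X) and Podn (chromosome 4) stand apart from other members. On chromosome 10 the 2 measured neighbours went in opposite directions, Dcn higher and Lum lower. On chromosome 13 all 3 were lower, and so was Ecm2, a related leucine-rich repeat gene next to Aspn, with 62, 72, 74, 47 and 74 in WT tumors and 20, 11, 23, 38 and 31 in KO-labelled tumors (log2 difference -1.47 ± 0.28 SE, limma adjusted p = 0.00159).

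Up to 4 listed protein-coding genes on each side of each locus were then read, a set chosen after the members' values had been seen. Over all tested genes, 17.5% were called higher and 18.2% lower. Around the chromosome 13 cluster 7 flanking genes were tested, of which 2 were higher (Nol8 by 0.24 and Fbxw17 by 0.40 on the log2 scale), 1 was lower (Ecm2) and 4 did not pass. Cenpp, which lies on the opposite strand across Aspn, Omd and Ogn and shares 7 exon bases with Aspn, had a log2 difference of -0.23 (limma adjusted p = 0.208). Of 6 tested around the chromosome 10 cluster, 2 were higher (Btg1 by 0.47 and Atp2b1 by 0.29), 1 was lower (Nudt4, log2 difference -0.29) and 3 did not pass. Of 5 around Prelp and Fmod, only Btg2 was called, higher by 0.60. None of the 5 tested around Bgn was called, and of 6 around Podn 2 were higher (Magoh by 0.44 and Scp2 by 0.43). Scp2 overlaps Podn on the same strand but shares no exon base with it.

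**Figure D5:**
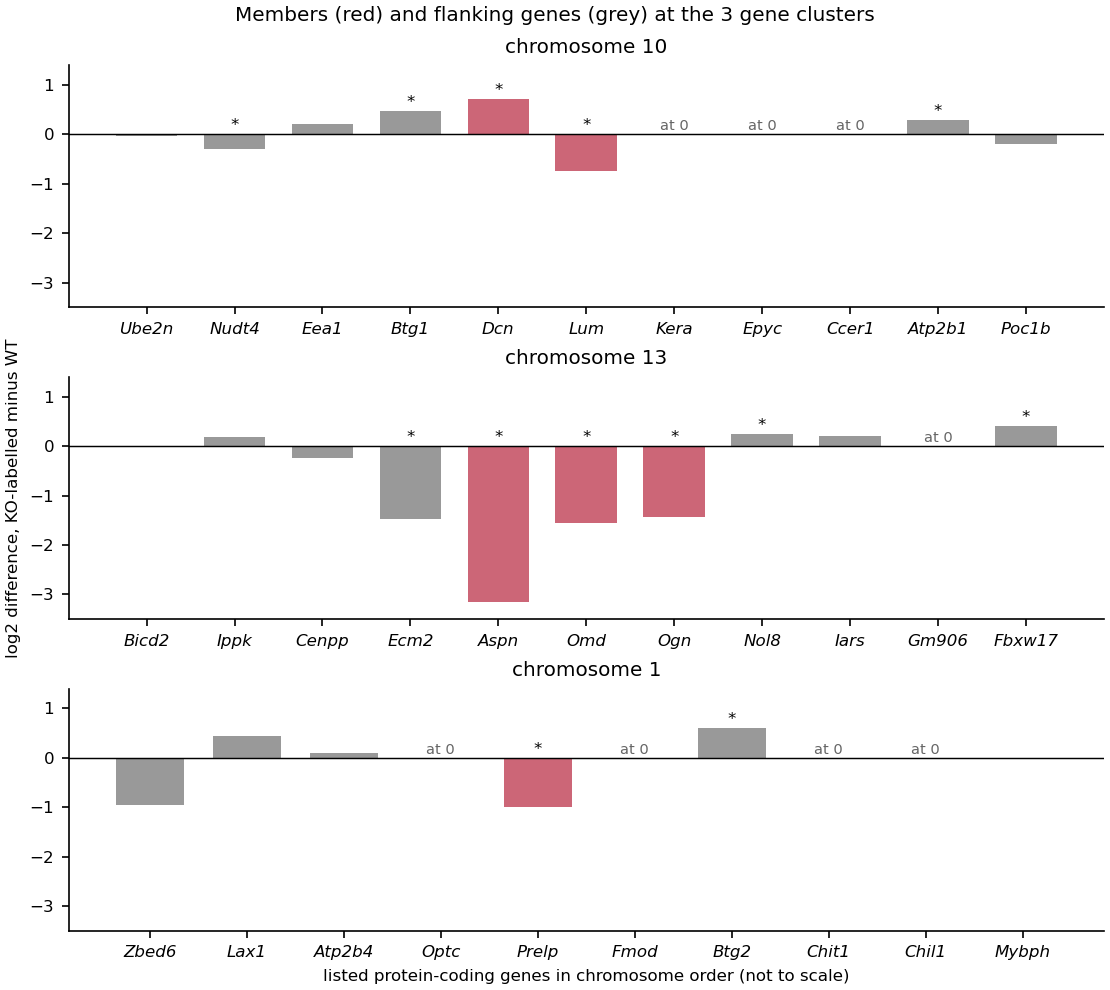
Log2 difference (KO-labelled minus WT) of the members (red) and of the listed protein-coding genes around them (grey) at the gene clusters on chromosomes 10, 13 and 1, in chromosome order and not to scale. An asterisk marks an adjusted p under 0.05 (limma) and "at 0" a gene without values. Aspn, Omd, Ogn and Ecm2 form a run of 4 lower genes, while Dcn and Lum point in opposite directions.

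The promoters of the 3 clustered genes that fell together on chromosome 13 are shown beside that of biglycan, which lies on chromosome X and had a log2 difference of -1.41, near those of Ogn (-1.44) and Omd (-1.55) but not that of Aspn (-3.16). Each window runs from 250 bases before to 50 bases after the gene's RefSeq start (build GRCm38.p6, all plus strand): Aspn chr13:49544193-49544492, Omd chr13:49582212-49582511, Ogn chr13:49607765-49608064 and Bgn chrX:73483351-73483650. Capitals mark the matches described next.
Aspn: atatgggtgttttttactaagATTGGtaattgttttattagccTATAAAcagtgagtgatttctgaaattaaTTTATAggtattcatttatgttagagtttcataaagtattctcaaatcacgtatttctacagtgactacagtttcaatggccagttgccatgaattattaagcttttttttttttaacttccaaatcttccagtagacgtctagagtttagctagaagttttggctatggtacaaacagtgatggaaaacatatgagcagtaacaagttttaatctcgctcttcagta
Omd: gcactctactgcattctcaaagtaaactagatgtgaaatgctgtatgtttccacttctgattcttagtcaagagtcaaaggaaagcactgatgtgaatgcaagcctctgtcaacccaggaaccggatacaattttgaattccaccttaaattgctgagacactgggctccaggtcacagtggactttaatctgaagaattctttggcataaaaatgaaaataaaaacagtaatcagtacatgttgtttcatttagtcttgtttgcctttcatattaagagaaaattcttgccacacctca
Ogn: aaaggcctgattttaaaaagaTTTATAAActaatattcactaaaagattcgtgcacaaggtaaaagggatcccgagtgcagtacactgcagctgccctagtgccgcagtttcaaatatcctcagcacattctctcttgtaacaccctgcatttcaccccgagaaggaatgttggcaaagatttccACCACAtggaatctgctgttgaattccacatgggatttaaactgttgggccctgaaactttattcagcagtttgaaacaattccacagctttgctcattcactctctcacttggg
Bgn: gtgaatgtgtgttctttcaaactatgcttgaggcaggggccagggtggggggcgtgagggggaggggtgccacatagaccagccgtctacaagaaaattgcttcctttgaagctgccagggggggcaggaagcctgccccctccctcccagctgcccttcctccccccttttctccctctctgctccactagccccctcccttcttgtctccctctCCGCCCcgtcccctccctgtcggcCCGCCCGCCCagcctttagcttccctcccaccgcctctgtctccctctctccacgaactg

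The members' promoters were searched on both strands for the letters of the TATA box (TATAAA) and the CCAAT box (CCAAT itself). The core bound by Sp1 was searched as GGGCGG and the Runx site as TGTGGT. For AP-1 factors the letters were TGANTCA. For STAT factors they were TTCNNNGAA. RefSeq promoters were matched for 8 of the 10 members, 9 windows in all because Podn has 2. TATAAA was found in Aspn and Ogn, at more than 170 bases before the start, and in 13.6% of 32851 promoters of the same length. In Ogn the matches on the 2 strands share bases. CCAAT was in 4 of the 9 windows, those of Aspn, Prelp, Fmod and Kera, and in 37.4% of all. GGGCGG occurred 3 times in Bgn and 2 times in a Podn window and was in 35.7% of all, and TGTGGT was found only in Ogn (16.8% of all). TGANTCA (7.81% of all) and TTCNNNGAA (8.30%) had no match in these 9 windows. Omd had none of the 6. The clustered genes were also poor in G and C, at 31.0% for Aspn, 37.7% for Omd and 42.3% for Ogn, against 63.7% for Bgn and a median of 52.7% over all promoters.

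Each member's profile over the 10 tumors was compared with those of 10362 named genes with a mean value of at least 100, as the root mean square difference of centred log2 values. This is a description over tumors that share the group difference. The nearest profiles were the aminopeptidase gene Anpep for Dcn (0.06), the homeobox gene Prrx2 for Bgn (0.12), the vitamin K-dependent carboxylase gene Ggcx for Lum (0.14), the homeobox gene Dlx1 for Ogn (0.16), Dach1 for Prelp (0.09), Stxbp6 for Podn (0.04) and the insulin-like growth factor gene Igf1 for Omd (0.17). Aspn had no such close neighbour. Its nearest were Lyve1, a hyaluronan receptor of lymphatic vessels and some macrophages (0.37), and the carbonyl reductase gene Cbr2 (0.38). The genes next in likeness were Fbxl5 for Dcn, Tnfrsf21 for Bgn, Ids for Lum, Amot for Ogn, Thsd7a for Prelp, Cdkn2c for Podn and Cthrc1 for Omd. Among the members themselves, Lum and Podn were the nearest pair (0.23) and Dcn and Aspn the farthest apart (1.99).

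Of 8 further genes of the family, 3 had values. Tsukushi (Tsku), a secreted inhibitor of several growth factors, was at 583, 744, 623, 586 and 628 in WT tumors and at 477, 344, 443, 353 and 450 in KO-labelled tumors, a 1.54-fold fall without overlap (limma adjusted p = 0.000999). Ecm2 fell as given above. Podnl1, the nearest relative of podocan, did not pass, with 79.2 ± 12.9 against 94.4 ± 10.2 (SD, n = 5 each; log2 difference 0.26, limma adjusted p = 0.177).

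The enzymes that build the chains were lower in part. Of 21 tested genes of chondroitin and dermatan sulfate synthesis, 8 were lower, none was higher and 13 did not pass, with a median log2 difference of -0.17. The sulfotransferase gene Ust fell most clearly, from 862.4 ± 58.7 to 516.4 ± 91 (SD, n = 5 each; log2 difference -0.76), and the polymerizing factor gene Chpf, the sulfate donor synthase gene Papss2 and the epimerase gene Dsel fell by 0.35, 0.53 and 0.35 on the log2 scale. The other epimerase gene, Dse, named after its values were seen, was at 1947 ± 90.8 and 2025 ± 202.6 and did not pass. Of 6 tested keratan sulfate genes, 1 was higher (B3gnt2, 0.26) and 3 were lower (B4galt1, -0.34, B3gnt7, -0.63, and Chst2, -0.26).

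Proteases that mature or degrade these proteins moved both ways. Bmp1, which removes the propeptide of biglycan and also trims procollagen, fell from 3899 ± 225.9 to 2187 ± 238.7 (SD, n = 5 each; log2 difference -0.84, limma adjusted p = 1.43e-05). Its enhancer gene Pcolce (-0.52) and the procollagen peptidase gene Adamts2 (-0.29) also fell, and with the 2 of 5 in this list that did not pass the median was -0.29. Of 11 tested proteases reported to cleave members of the family, 3 were higher, 3 lower and 5 did not pass (median 0.00). Granzyme B (Gzmb) rose 4.16-fold and the collagenase gene Mmp13 7.92-fold, whereas the gelatinase genes Mmp2 and Mmp9 fell 1.77-fold and 3.07-fold.

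Collagens that these proteins bind fell with most of them. Of 12 tested, 10 were lower, none was higher and 2 did not pass, with a median log2 difference of -0.81. Col6a2 fell from 10611 ± 1544 to 3263 ± 372.1 (SD, n = 5 each), Col6a1 by 1.44, Col5a2 by 0.99 and Col11a1 by 2.32 on the log2 scale. Of 18 tested receptors engaged by the family, 4 were higher, 9 lower and 5 did not pass (median -0.31). Met, a receptor bound by decorin, rose by 0.77 on the log2 scale, and the insulin receptor gene Insr, the insulin-like growth factor receptor gene Igf1r and the Wnt co-receptor gene Lrp6 fell by 0.64, 0.55 and 0.84. The biglycan receptors Tlr2 and Tlr4, named after their values were seen, did not pass (limma adjusted p = 0.271 and 0.578).

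Of 11 tested growth factors and cytokines bound by the family, 3 were higher, 3 lower and 5 did not pass (median -0.06). Tgfb3 fell from 1145 ± 103.4 to 393.8 ± 87.5 (SD, n = 5 each; log2 difference -1.56), Tgfb2 by 1.25 and Igf1 by 1.49 on the log2 scale, and Tnf rose by 1.61. Tgfb1, named after its values were seen, was at 2131 ± 158.3 and 2222 ± 253.1 and did not pass. Of 17 tested other proteoglycans, 4 were higher, 7 lower and 6 did not pass (median -0.13). Srgn, the proteoglycan of blood cell granules, rose by 1.38 on the log2 scale, while the cell-surface proteoglycan genes Tgfbr3 and Cspg4 and the basement membrane gene Col18a1 fell by 0.74, 0.95 and 0.63.

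Many markers of cells that make these proteins were also lower. Of 15 fibroblast markers, all tested, 7 were lower, 3 higher and 5 did not pass (median log2 difference -0.15). Their summed value was 150728 to 173092 in WT and 76995 to 106727 in KO-labelled tumors, a sum that the collagens in the list largely make up. Fap (-2.08), Dpt (-0.86), Col1a2 (-0.80) and Postn (-1.42) fell, while Thy1 (0.91), Fbln2 (0.45) and Twist2 (0.36), named after their values were seen, rose as decorin did. Of 11 tested pericyte and smooth muscle markers, 7 were lower, 1 was higher and 3 did not pass (median -0.66). They summed to 5540 to 7314 and 3324 to 4778, Cnn1 was at 0, and Pdgfrb (-1.36), Cspg4, Rgs5 (-1.15) and Abcc9 (-0.78) fell. Des, the marker called higher (0.94), is also in the skeletal muscle list, and Cspg4 is also counted among the other proteoglycans above. The part of fibroblasts, pericytes and smooth muscle cells in the members' differences was not tested.

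Markers of tendon, cartilage and bone, tissues rich in several members, were mostly without values. Of 15, 9 were at 0 in all tumors, Tnmd, Comp, Col2a1 and Acan among them. Of the 6 tested, 3 were lower (Ibsp, -2.83, Mkx, -0.81, and Scx, -1.02) and 3 did not pass, and the sum was 2089 to 2867 in WT and 1713 to 2085 in KO-labelled tumors. Leukocyte markers went the other way, with 7 of 10 tested higher, none lower and 3 not passing, and a sum of 16816 to 18442 against 19473 to 29038. Of the 7, Ptprc, the pan-leukocyte marker, rose from 3926 ± 264.7 to 6783 ± 765.4 (SD, n = 5 each), and Cd8a (1.33), Itgam (0.57) and Ncr1 (0.47) rose on the log2 scale.

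The remaining lists moved less uniformly. Beside these counts and those of the lists above, 17.5% of all tested genes were called higher and 18.2% lower. Of 12 endothelial markers, 2 were higher, 4 lower and 6 did not pass (sum 4808 to 5401 against 3838 to 4917), with Pecam1 (0.67) and Emcn (1.13) higher and Vwf (-0.83) and Robo4 (-0.59) lower. Of 4 tested adipocyte markers, Lpl (1.52) and Pparg (0.95) were higher, Adipoq, Plin1, Lep and Cidec were at 0, and the sum was 535 to 1142 against 1012 to 1898. Skeletal muscle markers were present in both groups (sum 2923 to 7766 against 4356 to 9741), and of 11 only Des was called, higher by 0.94 on the log2 scale, and 10 did not pass. Of 10 melanoma markers 4 were tested, of which S100b (-2.90) and Ednrb (-1.45) were lower. A single keratinocyte marker of 8 had values (sum 63 to 90 against 47 to 103) and did not pass. WT3, the WT tumor with the highest values of asporin, biglycan, osteoglycin and Prelp, also had the highest sums of WT tumors for the pericyte and the skeletal muscle markers. This rests on a single tumor, and both lists hold Des, so their sums are not independent. The part of the cells that these lists mark was also not tested.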

How the data were processed

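RNA sequencing of whole tumors was analysed in 10 samples, 5 WT and 5 Siah2 KO by their titles. As the methods and the submitters' processing notes describe, read quality was checked with FastQC, single-end reads were aligned to mm10 with STAR and counted per gene with featureCounts, and edgeR was run through SARTools. The sources used here give no versions, annotation, strand setting or reason for the many zeros. The deposited table holds, for each gene and tumor, a score, which is the read count normalized between libraries by the authors and rounded to a whole number. As these scores are not raw counts, no count test was run, and no counting interval was derived. Sequencing depth, which limits the low members most, is not shown by the totals of normalized values, 15414758 to 16503134 per library.

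Titles number the knockout tumors otherwise than the columns do from the fourth on, so KO4 and KO5 were used by group only. The labels do not say that the tumors were processed separately, so p-values measure the spread between these samples.

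Log2(value + 1) was fitted with limma 3.58.1 (R 4.3.3), with genotype as the only term, empirical Bayes with trend and Benjamini-Hochberg adjustment over 12926 genes (threshold 0.05). The fit was tested on simulated data. Ratios were compared by exact permutation (scipy 1.17.1). Of 12 pairs planned, 3 with an unmeasured member were dropped. Loci and lengths came from GENCODE M21, promoters from RefSeq. Ccn2 and Ccn4 stand in the table under older names. The members, pairs and 18 other lists were chosen with earlier results of these data known. Named genes are the members, at most 4 genes per list with the smallest p among those past the threshold, and the 2 nearest profiles per member. Other names are marked. Alternatives were the pseudocount, a filter on the mean value, other scaling, no trend, tumor weights, leaving out tumors and a block on the tumor number.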

Additional observations from a re-analysis of the deposited data

Results flagged for a closer look

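The value of Aspn in WT3, 2004, stood apart from the other WT tumors, which lay between 851 and 1166. Its gap to the nearest tumor was 0.727 of the group's range, above the limit of 0.710 that Dixon's test sets for 5 samples. It was the only value to do so in the 16 combinations of member and group checked, where chance marks about 1 in 20. WT3 is in the WT group, and without it Aspn was still lower in KO-labelled tumors, by 2.95 on the log2 scale in place of 3.16.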

How the results depend on the processing

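All 8 measured members kept their direction under every alternative, and all but Podn their call. Omd, whose mean is under 50, was not in the fit limited to means of at least 50. With single tumors left out, the log2 difference ranged from 0.59 to 0.85 for Dcn, -1.49 to -1.27 for Bgn, -3.27 to -2.95 for Aspn, -0.80 to -0.69 for Lum, -1.12 to -0.92 for Prelp, -1.68 to -1.45 for Omd, -1.52 to -1.31 for Ogn and -0.64 to -0.53 for Podn, and the largest limma adjusted p was 0.0153. The 8 ratios that differed also did so with the other pseudocounts, with single tumors left out and without KO4 and KO5. These were the alternatives run for ratios. For the ratios of decorin to another member this outcome too was fixed beforehand. The log2 difference of Ogn to Omd ranged from -0.07 to 0.20 with single tumors left out. It was -0.21 with a pseudocount of 10 and 0.32 without KO4 and KO5, against 0.11 in the main setting. Scaling to equal totals lowered the median of all genes to -0.06 and the share of called genes that were higher from 49.0% to 38.6%, with the members' calls as before. The summed exon length in place of that of the principal transcript, added after seeing the data, moved 15 of the 16 shares of the members by more than 1 SD. The titles give both groups the numbers 2, 3, 5 and 6, but only for 2 and 3 is the column of both tumors certain. Their deviations from the group means correlated at 0.03 and 0.05 over 12926 genes. With only 2 such pairs, this cannot tell whether tumors of the same number shared more than the number. With a replicate block on these 2 numbers 3902 genes were called, against 4606 over all tumors and 2938 in the same 4 tumors without the block, an alternative added after seeing the data. In these small fits Podn did not pass (log2 difference -0.56, limma adjusted p = 0.209 with the block and 0.179 without), and the other 7 measured members did. How counting error compares with the spread between tumors cannot be told from rounded values, which limits Omd and Podn most.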
